A study of Mus musculus with 10 samples.

Results

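Loss of the transcription factor Nrf2 was examined in mouse erythroblasts that retained the miR-144/451 microRNA cluster, by setting the 3 Nrf2-null libraries (genotype Nrf2-/- in the labels) against the 2 wild type libraries. These 5 of the 10 libraries were chosen by genotype alone, and all genes of the raw count table entered. The other 5 libraries were 2 miR-144/451-null (miR-144/451-/-) and 3 double-null (Nrf2/miR-144/451-/-) libraries, which served to estimate the spread and to repeat the comparison with the cluster absent. All 4 genotypes were of strain C57BL/6, and all cells were erythroblasts from spleens taken on day 11 after 5-FU, a drug that blocks thymidylate synthesis and kills dividing blood precursors. The sources used here do not give the targeted exons, the age of the mice or whether littermates served as controls. Nothing states that each library came from a separate mouse, so the spread behind each p-value may be technical.

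Nrf2, encoded by Nfe2l2, is held at a low level by Keap1, an adaptor that hands it to a Cul3 ubiquitin ligase for destruction by the proteasome. Oxidants and electrophiles disable Keap1, after which Nrf2 pairs with a small Maf protein and binds antioxidant response elements in genes for glutathione, thioredoxin, NADPH and detoxifying enzymes. Erythroblasts carry large amounts of iron, heme and oxygen-binding globin, and the same elements are bound there by Bach1, a repressor that heme inactivates.

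The 10 libraries held 13087827 to 15131036 counts. Mir144, the only one of the 2 cluster genes with counts in the table, had 12 and 17 counts in the wild type, 9, 13 and 16 in the Nrf2-null and 0 in all 5 cluster-null libraries. Nfe2l2 read 58.1 and 63.5 CPM (read counts scaled to a common library size) in the wild type and 46.1, 50.2 and 55.6 CPM in the Nrf2-null libraries. All 3 Nrf2-null values were below both wild type values, but the difference did not pass the test (log2 fold change -0.26 ± 0.14, SE, adjusted p = 0.470). Reads were summed over the whole gene, so reads from retained exons count, and this level does not check the deletion.

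By Xist and Y-linked reads, both wild type libraries came from females and all 3 Nrf2-null libraries from males. Xist, the RNA that silences an X chromosome, read 1396 and 1745 CPM in the wild type and 0.269, 0.902 and 0.536 CPM in the Nrf2-null libraries. Loss of Nrf2 and sex therefore cannot be told apart within these 5 libraries, for any gene below. Both miR-144/451-null libraries and double-null 1 and 2 were male and double-null 3 was female, so the same genotype change could be read within males only with the cluster absent. The Nrf2-null 3 library stood apart from its group, with a root mean square deviation of 0.458 log2 units from its group mean, against 0.307 and 0.342 for Nrf2-null 1 and 2. Erythroid markers such as Tfrc, Slc4a1 and Alas2 were detected in every library, and the summed level of 12 such markers ran from 107000 to 141400 CPM in the Nrf2-null and from 90200 to 125700 CPM in the wild type.

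Few genes passed the test. Of 14110 tested genes, 27 (0.191%) had an adjusted p under 0.05, 18 higher and 9 lower in the Nrf2-null libraries. Without scaling factors, which moved the median of all genes to -0.12 on the log2 scale, the split was 14 higher and 11 lower. Of the 27, 26 differed at least 2-fold, 6 carried predicted-gene names, and in all 27 the Nrf2-null and wild type libraries did not overlap. Lack of overlap was common: 15.7% of all tested genes lay above and 20.1% below the wild type without overlap. The Nrf2 target gene Pir, the splicing factor gene Cwc22, the apoptosis gene Bcl2l11 and the interferon-inducible GTPase genes Igtp and Irgm2 were among the 27. The count rested on few libraries: 11 genes passed without wild type 3 and 17 without Nrf2-null 2. With a term for sex 12 passed, and 19 of the 27 lost the call. Sex varied within a genotype only among the double-null libraries, so this term rests on double-null 3 against double-null 1 and 2. A call or median kept or lost with it, here and below, does not separate sex from genotype. DESeq2 called 134 genes, 93 higher and 41 lower, including all 27.

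**Figure D1:**
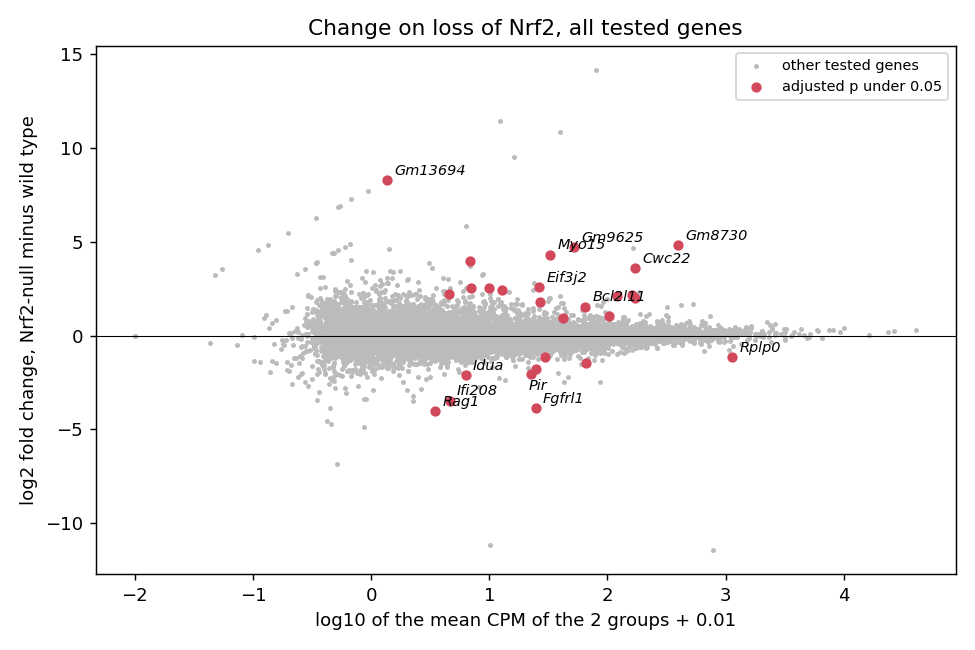
Log2 fold change of Nrf2-null minus wild type (vertical axis) against the log10 mean CPM of the 2 groups (horizontal axis) for 14110 tested genes; red points are the 27 genes with an adjusted p under 0.05. The grey points far from 0 include Xist and Y-linked genes, which did not pass and also varied within the double-null group, where double-null 3 was female.

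Of the Nrf2 pathway, Pir alone passed. Pir encodes pirin, an iron-binding nuclear protein and a known Nrf2 target. It read 27.7 and 48.8 CPM in the wild type and 11.7, 11.6 and 10.2 CPM in the Nrf2-null libraries. Every Nrf2-null library was below both wild type libraries, and the wild type pair differed more between themselves than the Nrf2-null libraries did. Pir fell 3.41-fold (log2 fold change -1.77 ± 0.24, adjusted p = 0.00914). With the cluster absent it read 33.6 and 24.2 CPM in the miR-144/451-null and 7.58, 7.14 and 6.63 CPM in the double-null libraries, and fell again (log2 fold change -2.02, adjusted p = 0.0101). Pir lies on the X chromosome. Within the male libraries of that comparison the values were 33.6 and 24.2 against 7.58 and 7.14 CPM, without overlap. Of all tested genes, 27.3% lay apart in these males in the direction of their first comparison. The part of sex in the first Pir call was not tested. The first call was lost without wild type 3, without Nrf2-null 1, without Nrf2-null 2, under the replicate block and with a term for sex, with an adjusted p of up to 0.484.

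The core of the antioxidant response element was searched as TGACNNNGC on either strand in RefSeq promoter windows of 300 bases (GRCm38.p6; 250 bases before the start site). It was found in 14% of 27025 genes with a promoter and in 17.1% of the tested genes matched by symbol. Of the 88 genes in 6 Nrf2 pathway lists, 77 had a promoter and 19 (24.7%) a match. Of the 18 called genes with a promoter, 5 had a match, namely Fgfrl1, Igtp, Irgm2, Pir and Rplp0. Of the 16 pathway genes lower at an unadjusted p under 0.05, 13 had a promoter and 7 a match: Abcc4, G6pdx, Me1, Pir, Prdx1, Srxn1 and Txnrd1. These 16 were selected by their values, so the count is a description. Pir, which passed, is shown with Srxn1, Txnrd1 and G6pdx, 3 of the other 6 with a match, chosen as examples after their values were seen. They are written 5′ to 3′ on the strand of the gene, with matches to the core or its reverse complement in capitals.
Pir, chrX:164269181-164269480, plus strand: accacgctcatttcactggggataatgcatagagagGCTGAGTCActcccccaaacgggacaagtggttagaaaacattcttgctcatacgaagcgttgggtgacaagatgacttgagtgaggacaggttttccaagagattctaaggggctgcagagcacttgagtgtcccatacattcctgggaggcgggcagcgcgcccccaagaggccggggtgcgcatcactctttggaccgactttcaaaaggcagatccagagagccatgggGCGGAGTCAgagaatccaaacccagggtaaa
Srxn1, chr2:152105274-152105573, plus strand: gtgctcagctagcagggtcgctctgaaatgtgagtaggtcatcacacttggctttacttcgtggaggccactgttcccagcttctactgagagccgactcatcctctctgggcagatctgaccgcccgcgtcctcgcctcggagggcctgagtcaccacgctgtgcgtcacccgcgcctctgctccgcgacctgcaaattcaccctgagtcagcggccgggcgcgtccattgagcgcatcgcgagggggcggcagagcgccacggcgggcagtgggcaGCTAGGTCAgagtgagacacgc
Txnrd1, chr10:82858956-82859255, plus strand: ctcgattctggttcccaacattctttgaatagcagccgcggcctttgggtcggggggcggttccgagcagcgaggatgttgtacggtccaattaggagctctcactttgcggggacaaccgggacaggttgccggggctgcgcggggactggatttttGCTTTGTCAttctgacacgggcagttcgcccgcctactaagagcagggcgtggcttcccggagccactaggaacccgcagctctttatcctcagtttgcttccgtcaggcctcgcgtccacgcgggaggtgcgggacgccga
G6pdx, chrX:74428831-74429130, minus strand: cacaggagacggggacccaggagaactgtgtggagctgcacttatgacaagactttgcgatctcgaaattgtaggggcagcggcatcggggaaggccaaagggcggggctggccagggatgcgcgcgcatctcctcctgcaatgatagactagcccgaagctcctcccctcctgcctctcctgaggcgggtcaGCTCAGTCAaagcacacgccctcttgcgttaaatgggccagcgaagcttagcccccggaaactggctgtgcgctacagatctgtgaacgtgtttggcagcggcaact
The Pir window held 2 matches and the others 1 each. A match describes the letters and does not show that Nrf2 was bound.

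The redox enzymes with the next smallest p-values did not pass. Srxn1, sulfiredoxin, which restores over-oxidised peroxiredoxins, read 42.1 and 111 CPM in the wild type and 18.8, 22.8 and 8.88 CPM in the Nrf2-null libraries. The groups did not overlap, but the wild type pair differed widely (log2 fold change -2.18 ± 0.47, adjusted p = 0.204). Gsr, glutathione reductase, read 59.9 and 96.8 CPM against 42.0, 48.8 and 36.0 CPM (log2 fold change -0.89 ± 0.20, adjusted p = 0.167). Its groups did not overlap either. DESeq2 called Srxn1 (adjusted p = 0.000114) and Gsr (adjusted p = 0.0242). Nqo1, a quinone reductase often used as a readout of Nrf2, read 43.4 and 70.2 CPM against 32.8, 36.8 and 38.7 CPM (log2 fold change -0.65 ± 0.18, adjusted p = 0.303).

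By role, the pathway lists are read against a background in which 5.18% of all tested genes had an unadjusted p under 0.05 in the higher direction and 6.92% in the lower. Of the 76 tested genes of the 6 lists, 16 had such a p in the lower direction. For NADPH and the pentose phosphate pathway, none of 12 genes passed, 6 had an unadjusted p under 0.05 in the lower direction, and the median log2 fold change was -0.42, against -0.02 over all genes. The count of 6 was 3 without wild type 1, 1 without wild type 3 and 0 with a term for sex. Its members included Rpia (-0.63), Taldo1 (-0.52) and G6pdx (-0.66), the enzyme that starts the pathway. Me1, malic enzyme, read at most 1.06 CPM in any of the 5 libraries. For thioredoxin and peroxide removal, none of 12 passed and 5 lay lower at an unadjusted p under 0.05, with a median of -0.19. Without wild type 3 the count was 1 and the median -0.06, and with a term for sex they were 2 and -0.05. Among these, Txnrd1, thioredoxin reductase, differed by -0.58 and Prdx6, a peroxiredoxin, by -0.67, while Txnip, an inhibitor of thioredoxin, lay higher by 0.63. Txnrd1 read 105 and 119 CPM in the wild type and 81.6, 79.5 and 63.0 CPM in the Nrf2-null libraries, without overlap.

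For detoxifying enzymes and exporters, 21 of 32 genes had counts enough to be tested, and 1 (Pir) fell. The median was -0.13, with 4 genes lower and 1 higher at an unadjusted p under 0.05. Without wild type 3, 1 was lower and the median was -0.01. Abcc4, an exporter of conjugates, differed by -0.42, and Mgst1, a membrane glutathione transferase, by 0.87. For glutathione synthesis and use, none of 11 tested genes passed, 1 (Gsr) was lower at an unadjusted p under 0.05, and the median was -0.15, or 0.07 without wild type 3. Among Nrf2, its repressors and partners, none of 14 passed and the median was 0.02. Of 6 genes for heme breakdown and ferritin none passed. Hmox1, the heme oxygenase, read 46.9 and 41.2 CPM in the wild type and 84.1, 68.6 and 242 CPM in the Nrf2-null libraries, highest in Nrf2-null 3. In that library the macrophage markers given below were also highest, and their part in Hmox1 was not tested.

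**Figure D2:**
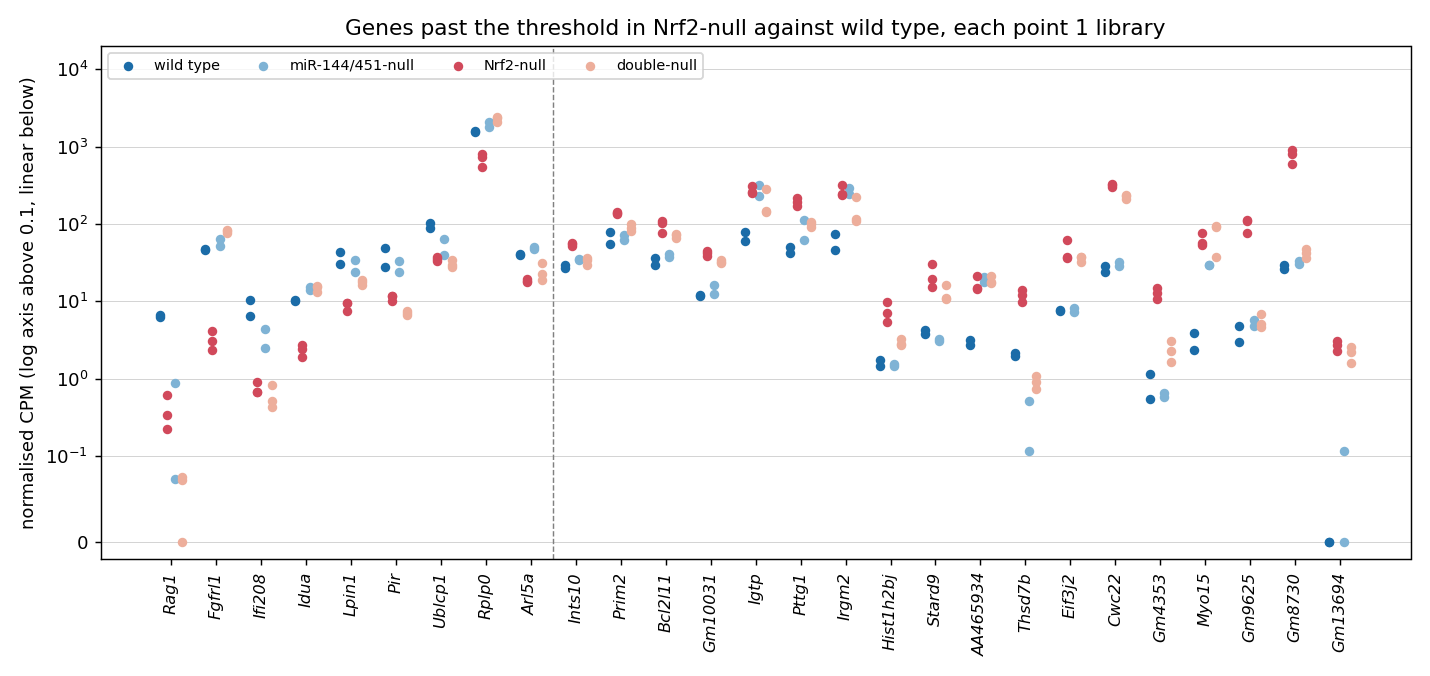
Normalised CPM (vertical axis, log above 0.1) of the 27 genes that passed the test, each point 1 library and each colour 1 of the 4 genotypes; genes left of the dashed line were lower in the Nrf2-null libraries. The red and dark blue points do not overlap for any gene shown. The paler cluster-null points follow Nrf2 status for some genes (Pir, Cwc22, Eif3j2) and not for others (Fgfrl1, Idua, AA465934).

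Other genes that fell carried out unrelated tasks. Fgfrl1, a receptor for fibroblast growth factors without a kinase domain, read 45.5 and 47.2 CPM in the wild type and 4.10, 2.33 and 3.06 CPM in the Nrf2-null libraries. It fell 14.5-fold (log2 fold change -3.86 ± 0.20, adjusted p = 3.66e-06). With the cluster absent it read 64.6 and 51.2 CPM in the miR-144/451-null and 75.9, 80.6 and 84.5 CPM in the double-null libraries, so that low values were found in the Nrf2-null libraries but not in the double-null libraries. Idua, a lysosomal enzyme that breaks down glycosaminoglycans, was also low in the Nrf2-null libraries and not in the double-null libraries. It read 10.1 and 10.4 CPM in the wild type and 1.88, 2.41 and 2.75 CPM in the Nrf2-null libraries (log2 fold change -2.13 ± 0.22, adjusted p = 0.00164). Its cluster-null values were 13.3 to 15.6 CPM in all 5 libraries. Idua and Fgfrl1 lie on chromosome 5 with 1 annotated gene between them.

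Lpin1, a phosphatidate phosphatase of lipid synthesis, read 43.0 and 30.05 CPM in the wild type and 9.49, 7.44 and 9.56 CPM in the Nrf2-null libraries, a 4.14-fold fall (adjusted p = 0.0017). Ublcp1, a phosphatase that acts on the proteasome, read 87.6 and 104 CPM against 32.9, 37.1 and 35.0 CPM (log2 fold change -1.45 ± 0.19, adjusted p = 0.00846). In the double-null libraries Ublcp1 read 27.9 to 34.2 CPM, below the 40.1 and 64.7 CPM of the miR-144/451-null libraries. Arl5a, a small GTPase of the Arf family, read 41.0 and 39.5 CPM against 19.2, 17.7 and 18.4 CPM (log2 fold change -1.12 ± 0.19, adjusted p = 0.0434). Its call was lost under 12 of 17 alternatives. Lpin1 and Ublcp1 lost theirs under 1 and 3, a term for sex among them.

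A pair of genes that fell belong to immune cells or interferon responses. Rag1, the recombinase that rearranges antigen receptor genes in lymphocyte precursors, read 6.37 and 6.68 CPM in the wild type and 0.336, 0.226 and 0.612 CPM in the Nrf2-null libraries (log2 fold change -4.04 ± 0.67, adjusted p = 0.0434). It was at or below 0.880 CPM in all 5 cluster-null libraries, and the call was lost under 10 of 17 alternatives. The summed level of 11 B cell markers was 723 and 1155 CPM in the wild type and 531, 503 and 655 CPM in the Nrf2-null libraries. All 11 had a negative log2 fold change (median -0.72, and -0.38 without wild type 3), where 47.9% of all tested genes had a positive one. Of the 11, 6 lay below the wild type without overlap, against 20.1% of all tested genes. In the lower direction 1 had an unadjusted p under 0.05, against 6.92% of all tested genes, and none passed. None was at 0 in all libraries, and the part of these markers in the Rag1 result was not tested. In these bulk samples fewer cells of a type and less RNA per cell cannot be told apart. Ifi208, an interferon-inducible gene of the Ifi200 family, read 6.56 and 10.4 CPM against 0.673, 0.677 and 0.918 CPM (log2 fold change -3.48 ± 0.42, adjusted p = 0.00391). Its call was lost without wild type 3 and with a term for sex.

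Among genes that rose, Cwc22 had the smallest p-value of all tested genes. Cwc22 is a spliceosome protein that helps to load the exon junction complex. It read 28.8 and 23.9 CPM in the wild type and 303, 330 and 315 CPM in the Nrf2-null libraries, an 11.9-fold rise (log2 fold change 3.58 ± 0.16, adjusted p = 1.39e-06). With the cluster absent it read 32.8 and 28.3 CPM without and 235, 213 and 227 CPM with loss of Nrf2, so the 4 libraries with Nrf2 and the 6 without it formed separate groups. Of its 31-base words, 22.4% also occurred in Gm13691, so that reads of the 2 genes were partly interchangeable. Bcl2l11, which encodes the pro-apoptotic protein Bim, read 36.6 and 29.2 CPM in the wild type and 75.9, 108 and 104 CPM in the Nrf2-null libraries (log2 fold change 1.54 ± 0.18, adjusted p = 0.00374). It read 37.5 and 41.2 CPM in the miR-144/451-null and 65.4 to 74.8 CPM in the double-null libraries. The call was lost without wild type 3 and with a term for sex. It was the 1 gene of 20 on the list for erythropoietin, Jak2, Stat5 and survival that passed, and the list's median was -0.24, or 0.06 without wild type 3.

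Genes of chromosome segregation and replication that rose were Pttg1, Prim2 and Stard9. Pttg1, securin, which restrains sister chromatid separation, read 41.8 and 49.9 CPM in the wild type and 219, 194 and 172 CPM in the Nrf2-null libraries (log2 fold change 2.09 ± 0.24, adjusted p = 0.00374). Prim2, the large primase subunit, read 78.1 and 55.4 CPM against 139, 141 and 135 CPM (log2 fold change 1.05 ± 0.17, adjusted p = 0.0367), a call lost under 9 of 17 alternatives. Stard9, a kinesin of the mitotic spindle, read 3.76 and 4.24 CPM against 19.6, 30.2 and 15.5 CPM (log2 fold change 2.45 ± 0.32, adjusted p = 0.00853). These 3 were named because they were among the 27 genes, and the lists of mitosis and replication genes showed no call, as given below. The calls of Pttg1 and Stard9 were lost without wild type 1, without wild type 3 and with a term for sex. Pttg1 was also above the wild type in the miR-144/451-null libraries, at 114 and 62.2 CPM.

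Igtp and Irgm2, interferon-inducible GTPases that act on vacuoles holding pathogens, are neighbours on chromosome 11 with 0 annotated genes between them. Igtp read 60.1 and 79.6 CPM in the wild type and 250, 262 and 313 CPM in the Nrf2-null libraries (log2 fold change 1.98 ± 0.32, adjusted p = 0.0459). Irgm2 read 45.6 and 73.3 CPM against 239, 242 and 315 CPM (log2 fold change 2.16 ± 0.34, adjusted p = 0.0459). With the cluster absent both ran the other way in value, Igtp from 320 and 230 CPM to between 143 and 284 CPM, so the wild type libraries were the lowest of the 10. The other 13 tested members of the GTPase list did not pass, and its median was 0.05. The calls of Igtp and Irgm2 were lost under 10 and 11 of 17 alternatives.

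The remaining named genes that rose were at low or moderate levels. Myo15, an unconventional myosin known from inner ear hair cells, read 3.88 and 2.36 CPM in the wild type and 57.7, 54.0 and 75.9 CPM in the Nrf2-null libraries (log2 fold change 4.30 ± 0.46, adjusted p = 0.00391). The miR-144/451-null libraries stood at 29.3 and 29.6 CPM. AA465934 read 2.73 and 3.18 CPM against 14.9, 21.2 and 14.4 CPM, while all 5 cluster-null libraries lay between 17.2 and 21.3 CPM. Thsd7b, a protein with thrombospondin domains, read 2.19 and 1.96 CPM against 14.1, 9.70 and 12.01 CPM (adjusted p = 0.0395). Ints10, a subunit of the Integrator complex, read 29.9 and 27.2 CPM against 51.3, 55.3 and 57.6 CPM and was the only one of the 27 below 2-fold (log2 fold change 0.94 ± 0.14, adjusted p = 0.0211). Hist1h2bj, a histone H2B gene that shares 66.7% of its 31-base words with Hist1h2br, read 1.76 and 1.47 CPM against 5.38, 7.07 and 9.95 CPM. The calls of Hist1h2bj, Thsd7b and Ints10 were lost under 11, 9 and 8 of 17 alternatives.

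Several called genes share sequence with another gene, and for these the summed level was compared. Rplp0 encodes a protein of the ribosomal stalk. Gm8730 and Gm9625, on other chromosomes, have predicted-gene names and are annotated as processed pseudogenes. Of the 31-base words of Gm8730, 62.8% occur in Rplp0. Rplp0 read 1574 and 1563 CPM in the wild type and 743, 808 and 544 CPM in the Nrf2-null libraries (log2 fold change -1.17 ± 0.18, adjusted p = 0.0286), a call lost under 8 of 17 alternatives. Gm8730 read 29.3 and 25.9 CPM against 805, 900 and 602 CPM (log2 fold change 4.80 ± 0.23, adjusted p = 1.61e-06). Gm9625 read 2.97 and 4.805 CPM against 110, 114 and 76.1 CPM (log2 fold change 4.70 ± 0.30). The sum of the 3 genes was 1606 and 1593 CPM in the wild type and 1657, 1822 and 1222 CPM in the Nrf2-null libraries, a ratio of means of 0.980. The groups overlapped in the sum, whose means were 1600 and 1567 CPM, although each of the 3 genes was called. In the 5 cluster-null libraries Gm8730 stayed between 30.8 and 47.3 CPM.

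**Figure D3:**
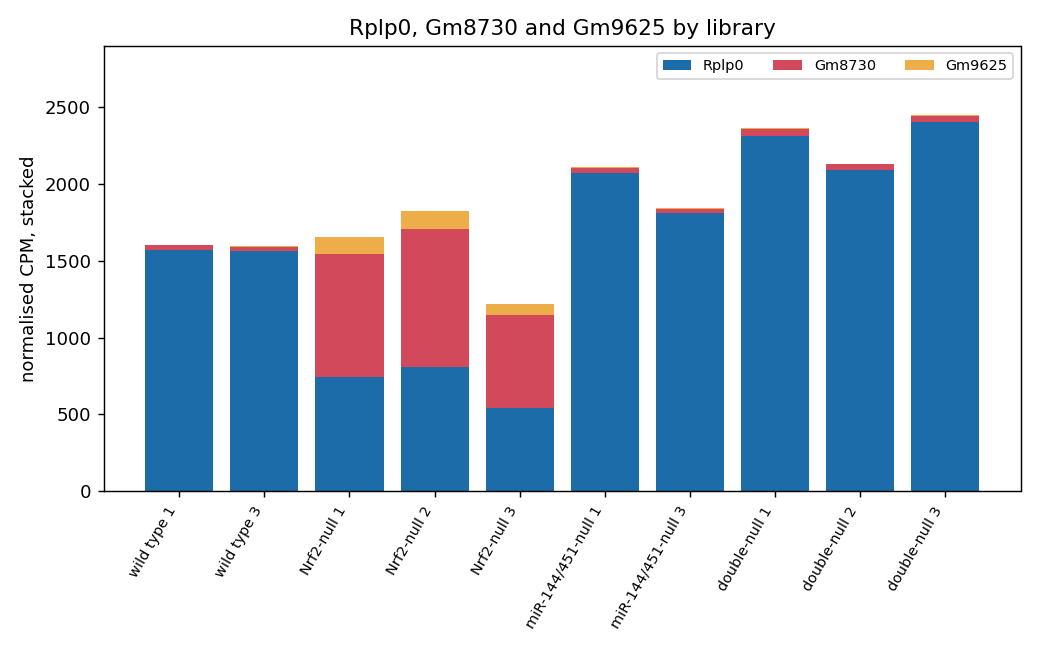
Stacked normalised CPM (vertical axis) of Rplp0, Gm8730 and Gm9625 in each of the 10 libraries (horizontal axis). Gm8730 and Gm9625 take a visible share only in the 3 Nrf2-null libraries, while the full bars of Nrf2-null and wild type overlap in height.

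Gm10031, Gm4353 and Eif3j2 were set against partners on chromosome 2, which also carries Nfe2l2. For Gm10031 and Gm4353 the groups overlapped in the sum, and for Eif3j2 they did not. Gm10031, with 93.3% of its words in Csnk2a1, the gene of a casein kinase 2 catalytic subunit, read 11.7 and 12.2 CPM in the wild type and 41.6, 44.4 and 38.6 CPM in the Nrf2-null libraries. Csnk2a1 read 113 and 126 CPM against 98.2, 98.2 and 90.4 CPM, and the 2 genes summed gave 125 and 138 CPM against 140, 142 and 129 CPM, with overlap. Gm4353, with 87.6% of its words in the nuclear pore gene Nup35, read 0.546 and 1.14 CPM against 10.9, 14.7 and 12.8 CPM. Nup35 read 31.3 and 37.5 CPM against 22.6, 20.6 and 19.8 CPM, and the sum gave a ratio of means of 0.960. Eif3j2, with 94% of its words in Eif3j1, a gene for the same translation initiation factor subunit, read 7.53 and 7.66 CPM against 36.8, 61.3 and 37.6 CPM. Here the sum, 107 and 109 CPM against 133, 132 and 138 CPM, remained without overlap at a ratio of 1.25. For Ublcp1 and its partner Gm12663 the sum kept a ratio of 0.493, and for Ifi208 and Ifi213 one of 0.472. The sources used here do not say how reads that match more than 1 gene were counted, so the values of each of these genes alone are uncertain.

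The called genes were spread over 10 chromosomes, with 6 of 1037 tested genes on chromosome 2 and 6 of 1129 on chromosome 11. Within 10 Mb of Nfe2l2, 2 of 95 tested genes were called (2.11%, against 0.191% of all tested genes), Cwc22 and Gm13694. Both comparisons of Nrf2 loss differ at Nfe2l2 itself, so for nearby genes loss of Nrf2 and linked DNA cannot be told apart. Gm13694 had no count in the wild type and 2.29, 3.08 and 2.75 CPM in the Nrf2-null libraries, at least 12.7-fold higher than the level of 3 counts per library. All of its 31-base words occur in Gm13698. The double-null libraries carried Gm13694 as well, at 1.58 to 2.58 CPM, against 0 and 0.117 CPM in the miR-144/451-null libraries.

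Loss of Nrf2 was then read in libraries that share none with the first comparison, the double-null against the miR-144/451-null. There 9 genes passed (0.0638%), and 4 of them were also among the 27: Pir, Cwc22, Eif3j2 and Gm10031. These 4 are 14.8% of the first list and 44.4% of the second. Of the 27 genes, 21 had the same sign with the cluster absent and 6 the opposite sign, and 17 had the same sign with an unadjusted p under 0.05, where 4.81% of all tested genes were higher and 5.87% lower at that level. Within males, the 2 double-null libraries lay apart from the 2 miR-144/451-null libraries in the direction of the first comparison for 17 of the 27, against 27.3% of all tested genes. Pir, Cwc22, Eif3j2, Stard9, Bcl2l11, Lpin1 and Myo15 were among these 17, and Fgfrl1, Idua, Rplp0, Igtp, Irgm2 and Pttg1 were not.

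**Figure D4:**
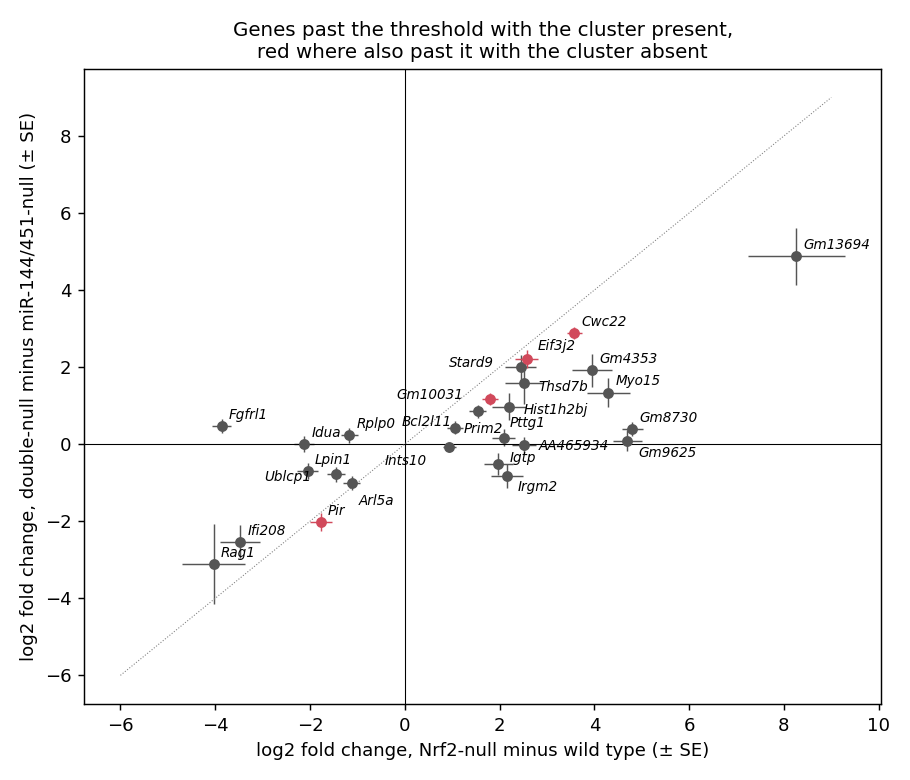
Log2 fold change of the 27 genes in Nrf2-null against wild type (horizontal axis) and in double-null against miR-144/451-null (vertical axis), each with its SE; the dotted line marks equal values. Pir, Cwc22, Eif3j2 and Gm10031, in red, passed the test in both comparisons. Fgfrl1, Gm8730, Gm9625 and AA465934 lie between -0.02 and 0.47 on the vertical axis.

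The test of a different effect with and without the cluster called 9 genes (0.0638%), of which 5 were among the 27: Gm8730, Gm9625, Fgfrl1, Idua and AA465934. This test contains the comparison of Nrf2-null with wild type, where sex went with genotype, so a difference by sex can enter it. For the other 22 a different effect was not shown. Read over all 10 libraries, 16 of the 27 separated libraries with Nrf2 from those without it, where 2.35% of all tested genes did. In 15 of the 27 the 3 Nrf2-null libraries lay apart from all 7 others (14.6% of all tested genes), and in 12 the wild type pair lay apart from all 8 others (5.74%). The patterns overlap, and 5 of the 27 showed both the Nrf2-null and the wild type pattern. The Nrf2-null pattern alone held for Fgfrl1 and Idua, and the wild type pattern alone for AA465934, Igtp, Irgm2 and Rag1. Gm8730 showed all 3. Each of these patterns requires that Nrf2-null and wild type libraries do not overlap, which already held for all 27 called genes. The shares over all tested genes are therefore not a like baseline, and the counts are a description.

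Heat shock and proteasome genes had low values together without passing. Over all tested genes, 6.92% were lower at an unadjusted p under 0.05. Of 13 tested heat shock genes 12 had a negative log2 fold change, 8 had an unadjusted p under 0.05 in that direction, none passed, and the median was -0.55. The count of 8 was 2 without wild type 1, with a median of -0.31, and 3 without Nrf2-null 3. Hspa1b, an inducible Hsp70, read 74.8 and 47.5 CPM in the wild type and 10.8, 17.2 and 17.8 CPM in the Nrf2-null libraries (log2 fold change -2.005 ± 0.35, adjusted p = 0.0901); DESeq2 called it (adjusted p = 1.15e-05). In the cluster-null comparison Hspa1b had the opposite sign, and the heat shock median was 0.15. Of 31 proteasome genes 30 had a negative log2 fold change, 14 had an unadjusted p under 0.05 in the lower direction, and none passed. The proteasome median was -0.30, and 0.00 with the cluster absent. Without wild type 3 the count of 14 was 2 and the median -0.18, and with a term for sex they were 0 and -0.10. Psmb3, a subunit of the core particle, read 41.5 and 48.1 CPM against 28.4, 32.9 and 26.8 CPM, without overlap (adjusted p = 0.231).

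Cytokine genes had high values together, also without passing. Over all tested genes, 5.18% were higher at an unadjusted p under 0.05 and 15.7% lay above the wild type without overlap. Of 17 tested genes on the list of inflammatory cytokines and NF-kB targets, 12 had an unadjusted p under 0.05 in the higher direction, 15 lay above the wild type without overlap, and the median was 1.52. Tnf, a cytokine of activated macrophages, read 2.91 and 1.47 CPM in the wild type and 4.58, 7.14 and 13.5 CPM in the Nrf2-null libraries (adjusted p = 0.306). Nfkbiz, an atypical IkB protein, read 41.7 and 26.2 CPM against 70.7, 85.4 and 107 CPM (adjusted p = 0.314). DESeq2 called Tnf and Nfkbiz, and the inflammasome genes Il1b and Nlrp3. The cytokine median was 1.39 with the cluster absent. The count of 12 was 2 without wild type 3 (median 1.21) and 2 with a term for sex (median 0.71), and 7 without wild type 1 or without Nrf2-null 3 (medians 1.68 and 1.20).

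Macrophage markers also had high values in the Nrf2-null libraries. All 14 were tested, 13 had a positive log2 fold change, 7 of them at an unadjusted p under 0.05 (against 5.18% of all tested genes), and none passed. Their summed level was 262 and 252 CPM in the wild type and 508, 411 and 1378 CPM in the Nrf2-null libraries, highest in Nrf2-null 3. Vcam1, an adhesion molecule of the macrophages that nurse erythroblasts, read 41.5 and 40.0 CPM in the wild type and 92.7, 79.8 and 298 CPM in the Nrf2-null libraries. The macrophage median was 1.51, 0.79 without Nrf2-null 3 and 2.63 with a term for sex. The count of 7 was 0 without wild type 1, 1 without wild type 3, 1 without Nrf2-null 3 and 11 with a term for sex; with the cluster absent the median was 0.05. Neutrophil markers summed to 528 and 594 CPM in the wild type and 753, 1553 and 220 CPM in the Nrf2-null libraries, with overlap, and had 10 genes higher at an unadjusted p under 0.05 without Nrf2-null 3 against 2 with it. The part of either cell type in the cytokine, Igtp and Irgm2 values was not tested. In the double-null libraries the macrophage markers summed to 109, 280 and 446 CPM and the cytokine list to 2077, 2273 and 1831 CPM, against 185 and 345 CPM and 1099 and 333 CPM in the miR-144/451-null libraries.

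The erythroid lists held no call beyond Bcl2l11. Heme synthesis genes had a median of 0.09 over 14 genes, iron handling genes 0.03 over 15, red cell membrane genes 0.11 over 23, globins and their chaperone 0.25 over 8, and erythroid transcription factors 0.02 over 21. Without wild type 3 the heme synthesis median was 0.42, with 8 genes higher at an unadjusted p under 0.05 against 0 with it, and the red cell membrane median 0.35, with 7 against 1. Without wild type 1 the same medians were -0.05 and -0.06. Aqp1, the water channel of the red cell, read 2171 and 1946 CPM in the wild type and 3101, 2754 and 3770 CPM in the Nrf2-null libraries (adjusted p = 0.343). Bcl11a, a repressor of embryonic and fetal globin genes, read 62.8 and 63.9 CPM against 39.6, 37.3 and 24.2 CPM (adjusted p = 0.306). Mitosis genes had a median of 0.23 over 22 genes, with 6 at an unadjusted p under 0.05 in the higher direction (1 without wild type 1 or without Nrf2-null 3), and DNA replication genes 0.16 over 26 (0.05 without wild type 3, and 0.58 with a term for sex). The p53 list (-0.11 over 19), the unfolded protein list (0.22 over 20, with 8 genes higher at an unadjusted p under 0.05 without Nrf2-null 3 against 2 with it), glycolysis (-0.23 over 20) and the respiratory chain (-0.17 over 28) held no call. The p53 median was 0.07 without wild type 3 and the glycolysis median -0.02 without Nrf2-null 3.

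No other list held a call apart from the GTPases. Interferon-stimulated antiviral genes had a median of 0.03 over 29 genes, antigen presentation -0.03 over 17, the inflammasome 0.22 over 13, mitophagy and autophagy 0.14 over 17 (0.42 without wild type 3), and regulators of the step from G1 to S phase 0.12 over 17. Oasl2, an antiviral gene, read 128 and 162 CPM in the wild type and 16.6, 8.20 and 54.2 CPM in the Nrf2-null libraries, without overlap (log2 fold change -2.46 ± 0.83, adjusted p = 0.358). Genes for 5-FU targets and pyrimidine enzymes had a median of -0.16 over 11. Cad, which starts pyrimidine synthesis, read 99.4 and 63.4 CPM against 48.6, 35.3 and 23.9 CPM, also without overlap (adjusted p = 0.340). Median values of the other marker lists were 0.16 for erythroid, 0.73 for neutrophil, 0.31 for plasma cell, -0.22 for T cell and 0.39 for NK cell markers. They were -0.50 for megakaryocyte, 0.18 for mast cell, basophil and eosinophil, -0.66 for dendritic cell and -0.28 for stem and progenitor markers. Of 8 stromal and endothelial markers 3 were tested, with a median of 0.20. Leaving out 1 library changed the sign of several of these medians. Without wild type 1 they were 0.58 for dendritic cell, 0.26 for T cell, 0.03 for stem and progenitor and -0.03 for erythroid markers. Without Nrf2-null 2 they were -0.11 for neutrophil and -0.33 for mast cell, basophil and eosinophil markers, without Nrf2-null 1 -0.25 for stromal and endothelial markers, and without Nrf2-null 3 -0.18 for the inflammasome.

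**Figure D5:**
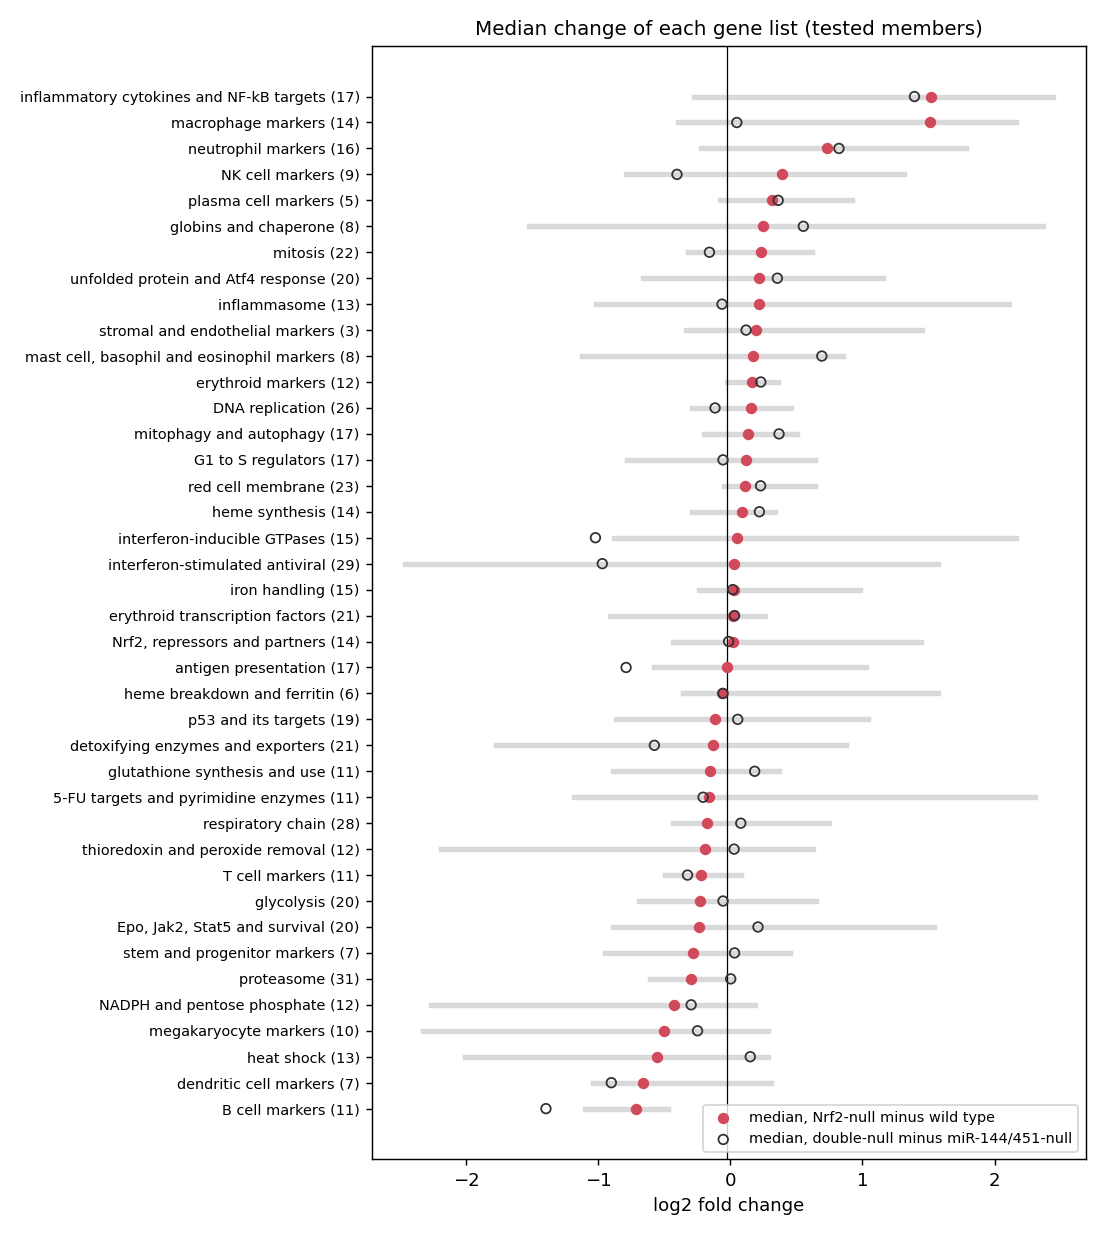
Median log2 fold change (horizontal axis) of the tested members of each gene or marker list other than the 2 sex-linked lists, with the number tested in brackets; filled points are Nrf2-null minus wild type, open points double-null minus miR-144/451-null, grey bars run from the lowest to the highest member in the first comparison, and the vertical line is the median of all tested genes. Cytokine genes (1.52) and macrophage markers (1.51) lie highest and B cell markers (-0.72) lowest of the 40 lists drawn, and the filled and open points lie furthest apart for macrophage markers.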

How the data were processed

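RNA sequencing libraries were made from 1 microgram of total RNA with a VAHTS kit, per the labels' protocols, from bead-isolated erythroblasts. The authors deposited raw counts per Ensembl gene for all 10 libraries (53465 genes). The submitters' processing notes list HISAT2 2.1.0, Bowtie2 2.2.3, TopHat2 and CASAVA with the build mm9, and no roles. The counter, its annotation and its strand option were not given in the sources used here, so overlapping or antisense genes were not told apart. Symbols came from GENCODE M21 through Ensembl identifiers (99.8% matched), an annotation of a later build, and the only coordinates printed are those of RefSeq promoter windows (GRCm38.p6). The deposited normalised values were not used.

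All 10 libraries entered 1 fit in R 4.3.3 with edgeR 4.0.16: filterByExpr (14110 genes), TMM factors (0.919 to 1.18), 1 coefficient per genotype, and a two-sided robust quasi-likelihood test with Benjamini-Hochberg adjustment over all tested genes and a threshold of 0.05. Adjusted p-values are from this test unless DESeq2 (1.42.0) is named. Fold changes are Nrf2-null minus wild type unless stated. Globin genes took 7.08% to 12.2% of counts. The method was tested on simulated data with planted changes. Shared sequence was counted as 31-base words of the annotated transcripts; partners with at least 30% of the words were summed.

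The genes named were the targeted and sex-linked genes, up to 12 per direction by fold change (at least 5 CPM, no overlap, no predicted name), up to 4 members of each of 28 gene lists and 12 marker lists with the smallest p, genes called in both comparisons or for the interaction, and calls within 10 Mb of Nfe2l2; predicted genes among the 27 were named after their values were seen. Not every gene under this rule is reported here. The comparison and the lists were chosen with earlier results of these data known. No list test was run. Alternatives were DESeq2, no filter, no scaling, only the groups compared, each library left out, a replicate block, a term for sex and globin genes removed.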

Additional observations from a re-analysis of the deposited data

Results flagged for a closer look

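For 9 genes the interaction term of Nrf2 loss with cluster status passed (edgeR's quasi-likelihood test, adjusted p under 0.05). The term contains Nrf2-null against wild type, where sex went with genotype, so sex and cluster status cannot be told apart in it. The values that follow are the log2 fold change with the cluster absent minus that with the cluster present. Gm8730 had -4.41, Gm9625 -4.61 and AA465934 -2.53, and all were called higher in Nrf2-null against wild type. With the cluster absent their log2 fold changes were 0.39, 0.09 and -0.02, and none passed. Gm8730 and Gm9625 share sequence with Rplp0, and their summed level with Rplp0 overlapped between Nrf2-null and wild type libraries. Fgfrl1 had 4.33 and Idua 2.13, both called lower in Nrf2-null against wild type. Naip2 had 4.04 and Naip5 8.44; these inflammasome receptors were low in the miR-144/451-null libraries, Naip2 at 0.219 and 0.469 CPM and Naip5 at 0 CPM in both, whereas Naip2 read 6.12 to 8.06 CPM in the double-null and 8.01 to 11.6 CPM in the Nrf2-null libraries. Cfap74, a protein of cilia, had -8.07 and 5830444B04Rik -7.47, and both were at or near 0 in the double-null libraries. For Naip5, Cfap74 and 5830444B04Rik groups at or near 0 counts enter the fitted value, so its size depends on the prior count and is no bound.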

How the results depend on the processing

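The count for Nrf2-null against wild type was 27; it was 134 with DESeq2, 716 without a filter on low counts, 45 with only the groups compared and 12 with a term for sex, and ran from 11 to 32 when each library was left out (11 without wild type 3, 17 without Nrf2-null 2). Without scaling factors it was 25. Double-null against miR-144/451-null gave 9 calls, 175 with DESeq2, 743 without the filter, 2 with only the groups compared, 3 with male libraries alone, and 4 to 78 with a library left out. The interaction gave 9, 24 with DESeq2, 232 without the filter, 2 with a term for sex, and 3 to 12 with a library left out. The cause of these shifts was not tested.

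Of the 27 genes, 7 were called under all 17 alternatives (AA465934, Cwc22, Eif3j2, Fgfrl1, Gm4353, Gm8730 and Gm9625). Of these, Eif3j2, Gm4353, Gm8730 and Gm9625 share most of their 31-base words with other genes. No alternative changed how reads were assigned to genes. Gm10031, Idua and Lpin1 were lost only with a term for sex, and no value changed sign past the threshold. With the replicate number as a block the counts were 21, 4 and 5. Same-numbered libraries correlated at -0.079 and -0.111 after removal of group means. The deviations of the 2 wild type libraries mirror each other, so these values cannot decide whether the numbers pair libraries. Nothing states that they do, and the block was kept as an alternative. The planned change of pseudocount was not run, since counts were tested. Depth limits genes at a few CPM: a level of 3 counts is about 0.213 CPM in the wild type, and floors cover counting error only.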
